A study of Mus musculus with 9 samples.

Results

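The Fc gamma receptor genes of cultured mouse macrophages are described here across 3 treatments. The group was chosen by gene name and holds 6 of the 53342 genes in the deposited table. They are Fcgr1, Fcgr3 and Fcgr4, the IgG receptors that activate the cell, Fcer1g, the signalling chain these 3 share, Fcgr2b, the inhibitory IgG receptor, and Fcgrt, the neonatal Fc receptor. All 6 had a row in the table, and all 6 passed the filter on low counts that left 12511 genes to test. The cells were macrophages grown from bone marrow of male and female C57BL/6J mice of 8 to 12 weeks, with the marrow of different animals kept apart. They received Torin-2, rapamycin or vehicle for 2 h, and then spinal cord homogenate at 1% (w/v, equal to 10 mg per mL) during 24 h. Torin-2 is an inhibitor of the kinase mTOR that occupies its ATP site and so blocks both mTOR complexes, whereas rapamycin binds mTOR through the protein FKBP12 and acts mainly on the first complex. There were 3 replicates each of Torin-2, rapamycin and vehicle. All 9 libraries came from cells that had received homogenate, so no library shows these genes in macrophages without it. The homogenate was made from pooled cords with the meninges removed, and the sources used here state no dose for Torin-2 or rapamycin.

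Fc gamma receptors bind the constant part of IgG and let macrophages take up particles, cells and debris that carry antibody. The activating receptors have no signalling motif of their own and depend on Fcer1g, the common FcR gamma chain, whose tyrosine motif (ITAM) is phosphorylated by Src-family kinases and then recruits the kinase Syk. In the mouse, Fcgr1 binds IgG with high affinity, Fcgr4 with intermediate affinity and Fcgr3 with low affinity. Fcgr2b carries an inhibitory tyrosine motif (ITIM) in its own tail, which recruits the lipid phosphatase encoded by Inpp5d and damps signals from the activating receptors. Fcgrt pairs with B2m, binds IgG and albumin inside acidic endosomes and returns them to the surface or the circulation.

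Each library held between 16116666 and 24044329 counts, and the raw counts of the 6 genes lay between 511 for Fcgr2b in vehicle replicate 2 and 31674 for Fcgr3 in Torin-2 replicate 3. Values are given as CPM, which are counts scaled to library size and to the TMM factor, and differences as log2 fold changes with SE. Summed macrophage markers, 8 of 8 of them tested, stood at 18533 to 20303 CPM with Torin-2, 23410 to 25313 CPM with rapamycin and 13603 to 19127 CPM with vehicle. Other cells that carry Fc receptors were looked for by their markers. The 5 B cell markers summed to at most 0.321 CPM with Torin-2, 0.237 CPM with rapamycin and 0.825 CPM with vehicle, and 4 of 5 natural killer cell markers and 4 of 5 mast cell markers had no count in any library. The 7 neutrophil markers, of which 3 had no count in any library, summed to 1.40 to 2.39 CPM with Torin-2, 3.11 to 4.89 CPM with rapamycin and 2.84 to 3.55 CPM with vehicle. The 8 microglia markers, which belong to another cell type that carries Fc gamma receptors, summed to 244 to 269 CPM with Torin-2, 282 to 332 CPM with rapamycin and 376 to 417 CPM with vehicle. P2ry12, a defining microglial receptor gene, averaged 1.01 CPM with Torin-2, 1.12 CPM with rapamycin and 8.63 CPM with vehicle. The 6 oligodendrocyte markers summed to 365 to 423 CPM with Torin-2, 691 to 845 CPM with rapamycin and 480 to 612 CPM with vehicle. The part of these markers in the results below was not tested. Mbp held most of the oligodendrocyte sum, with means of 327 CPM with Torin-2, 613 CPM with rapamycin and 418 CPM with vehicle. All cultures had received spinal cord homogenate, and whether marker RNA came from it or from cells in culture was not tested. In bulk RNA, fewer cells of a type and less RNA per cell cannot be told apart.

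Fcgr2b (ENSMUSG00000026656), Fcgr3 (ENSMUSG00000059498) and Fcgr4 (ENSMUSG00000059089) lie side by side on chromosome 1 of the GRCm38 build, in the GENCODE M21 annotation. Fcgr2b spans 170958617 to 170976547 on the minus strand, Fcgr4 spans 171018920 to 171029761 on the plus strand and Fcgr3 spans 171051174 to 171064935 on the minus strand. Fcer1g (ENSMUSG00000058715) lies further along the same chromosome, at 171229572 to 171234365 on the minus strand. Fcgr1 (ENSMUSG00000015947) is on chromosome 3 at 96282909 to 96293969 and Fcgrt (ENSMUSG00000003420) on chromosome 7 at 45092990 to 45103851, both on the minus strand. The coding exons for the outer part of Fcgr2b and Fcgr3 are close copies of each other, and this bears on how reads are assigned to an inhibitory or an activating receptor. Exon 4 of 1 annotated transcript of each gene is shown for both genes, read on the minus strand of GRCm38, with capitals at the bases that differ; it lies at chr1:170966446-170966700 in Fcgr2b and at chr1:171053939-171054193 in Fcgr3.
Fcgr2b exon 4: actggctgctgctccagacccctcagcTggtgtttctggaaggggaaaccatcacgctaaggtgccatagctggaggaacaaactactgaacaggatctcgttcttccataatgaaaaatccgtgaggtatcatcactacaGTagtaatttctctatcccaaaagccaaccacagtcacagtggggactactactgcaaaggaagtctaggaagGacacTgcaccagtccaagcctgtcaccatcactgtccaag
Fcgr3 exon 4: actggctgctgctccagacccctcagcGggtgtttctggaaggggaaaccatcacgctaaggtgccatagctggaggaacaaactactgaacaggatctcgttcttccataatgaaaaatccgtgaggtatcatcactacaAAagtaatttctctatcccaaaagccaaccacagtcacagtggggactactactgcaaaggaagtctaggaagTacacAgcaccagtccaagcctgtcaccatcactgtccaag
The 255 bases of the exon differ at 5 positions, an identity of 98.0%, and the longest identical run is 113 bases, longer than the 100 bp reads. The neighbouring exon 3 is 94.5% identical over 255 aligned bases, beside a gap of 3 bases.

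Exact copies of read length were counted over the whole transcripts. Of the 1248 windows of 100 bases in the Fcgr3 transcript, 44 (3.53%) were identical to a window of another gene, in each case Fcgr2b. The 3445 windows of the Fcgr2b transcript included 234 (6.79%) with an exact copy elsewhere in the annotation, 44 of them (1.28% of all its windows) in Fcgr3 and 156 in Cplx2, with 14 other genes involved in all. The transcripts of Fcgr1, Fcgr4, Fcer1g and Fcgrt had 0 such windows. How the authors' counting treated such reads is not stated in the sources used here, so the Fcgr2b and Fcgr3 counts are also given as a sum below. The antisense gene Gm38204 overlaps 155 exon bases of Fcgr2b and had 0 or 1 count in each library.

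Against vehicle, Torin-2 was accompanied by more Fcgr2b, Fcgr3 and Fcgr4 RNA and less Fcgr1 and Fcer1g RNA. Of the 6 genes, 3 rose, 2 fell and 1 did not pass the edgeR test at an adjusted p of 0.05, and for all 6 genes the Torin-2 and vehicle libraries did not overlap. In this comparison 65.4% of all tested genes passed (32.5% higher and 32.9% lower) and 70.2% did not overlap, so a count of this size is not by itself a result about these genes. The median log2 fold change of the 6 genes was 0.25, against -0.0078 over all genes tested.

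Against vehicle, rapamycin was accompanied by more Fcgr2b and Fcgr3 RNA and less Fcgr1 RNA, with smaller differences than Torin-2. Here 2 of the 6 genes rose, 1 fell and 3 did not pass in edgeR, beside 50.8% of all tested genes that passed (24.6% higher and 26.2% lower). The values of 4 genes did not overlap between rapamycin and vehicle, beside 57.5% of all genes, and the median log2 fold change was 0.15, against 0.0011 over all genes. Torin-2 was also set against rapamycin directly, where 3 genes rose, 2 fell and 1 did not pass. In that comparison 48.2% of all tested genes passed (24.2% higher and 24.1% lower). The values of 5 of the 6 genes did not overlap, beside 57.2% of all genes, and the median was 0.10, against -0.00067 over all genes. The comparisons with vehicle share their 3 vehicle libraries.

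**Figure D1:**
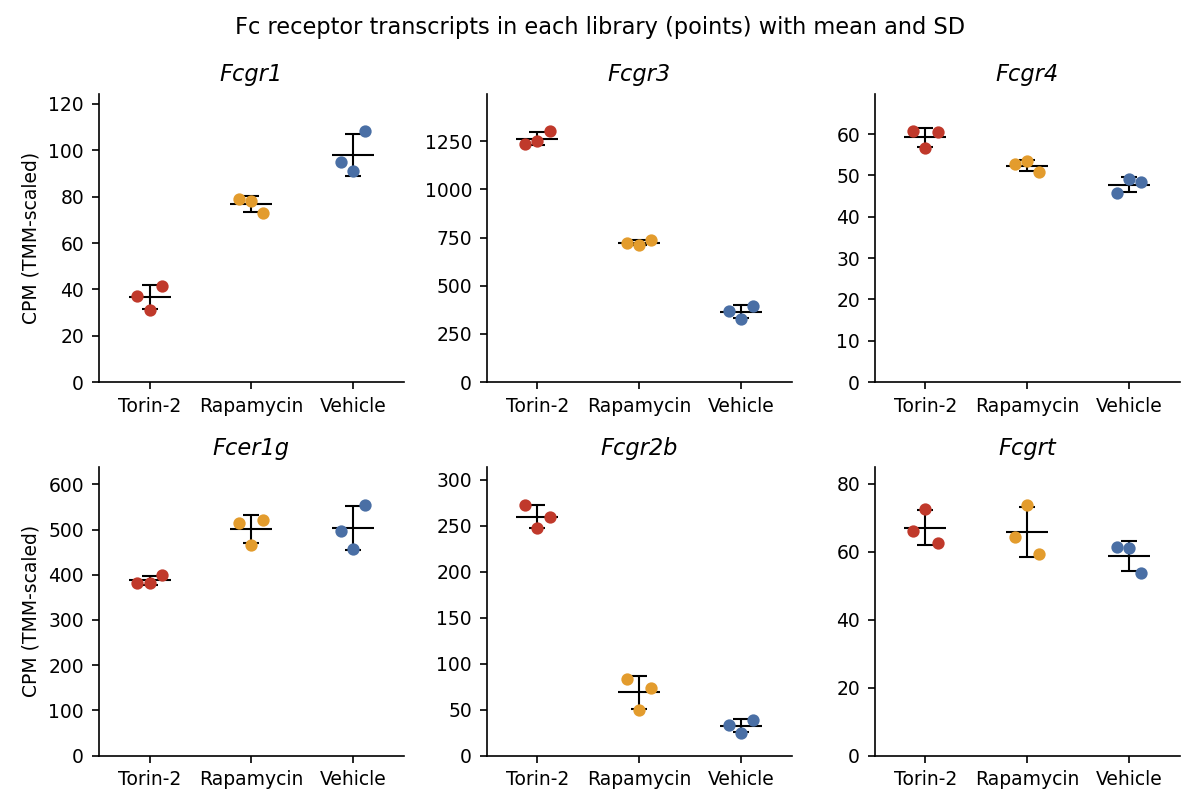
CPM of each Fc gamma receptor gene in each library, by treatment, with 1 panel per gene, points for the 3 libraries of a group and bars for the group mean and SD; each vertical axis starts at 0 and has its own scale. Fcgr2b and Fcgr3 are highest with Torin-2, intermediate with rapamycin and lowest with vehicle, Fcgr1 runs the other way, and the Fcgrt libraries differ little.

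Fcgr2b, the inhibitory receptor, had the largest difference of the 6 genes. It stood at 273, 248 and 259.6 CPM in Torin-2 replicates 1 to 3, at 83.9, 49.4 and 73.7 CPM in the rapamycin replicates and at 33.7, 24.8 and 39.3 CPM in the vehicle replicates. The 3 groups did not overlap, and within every group replicate 2 was the lowest library. The means were 260.2 ± 12.6 CPM with Torin-2, 69.0 ± 17.7 CPM with rapamycin and 32.6 ± 7.33 CPM with vehicle (SD, n = 3 each). Against vehicle, Fcgr2b was 7.97-fold higher with Torin-2, a log2 fold change of 2.99 ± 0.19 with an edgeR adjusted p of 6.12e-08. It ranked 181 of the 12511 tested genes by absolute log2 fold change. With rapamycin it was 2.11-fold higher than with vehicle (1.08 ± 0.18, edgeR adjusted p = 0.000471). Torin-2 exceeded rapamycin 3.78-fold (1.92 ± 0.18, edgeR adjusted p = 4.95e-06). The rise was seen in every pair of libraries with the same number: against vehicle it was 8.09-, 9.99- and 6.60-fold in Torin-2 replicates 1 to 3 and 2.49-, 1.99- and 1.87-fold in rapamycin replicates 1 to 3.

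Fcgr3, the low-affinity activating receptor, also rose with both compounds and was the most abundant IgG receptor RNA in every group. It stood at 1234, 1253 and 1302 CPM with Torin-2, at 719.7, 712 and 736 CPM with rapamycin and at 370.2, 329.8 and 396 CPM with vehicle. All Torin-2 libraries lay above all rapamycin libraries, and these above all vehicle libraries. Its means were 1263 ± 35.0 CPM with Torin-2, 723 ± 12.4 CPM with rapamycin and 365 ± 33.4 CPM with vehicle (SD, n = 3 each). Torin-2 was 3.46-fold above vehicle (log2 1.79 ± 0.07, edgeR adjusted p = 1.42e-09), which ranked 808 among the 12511 genes. Rapamycin was 1.98-fold above vehicle (0.98 ± 0.07, edgeR adjusted p = 6.13e-07), and Torin-2 was 1.75-fold above rapamycin (0.81 ± 0.07, edgeR adjusted p = 2.2e-06). Fcgr2b and Fcgr3 were also added up, since no split of shared reads between them can change the sum. Any shared reads that the counting dropped would be missing from the sum too. Fcgr3 makes up most of the sum, so it cannot check the rise of Fcgr2b. Together the 2 genes stood at 1507, 1501 and 1561 CPM with Torin-2, at 804, 762 and 810.2 CPM with rapamycin and at 404, 355 and 435 CPM with vehicle. The sum rose by 1.94 ± 0.07 with Torin-2 and by 0.99 ± 0.07 with rapamycin against vehicle (log2, edgeR adjusted p = 1.39e-09 and 1.01e-06). It was 0.94 ± 0.07 higher with Torin-2 than with rapamycin (log2, edgeR adjusted p = 1.16e-06).

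Fcgr1, the high-affinity activating receptor, was the member that fell most. It stood at 37.2, 31.2 and 41.5 CPM with Torin-2, at 79.1, 78.2 and 73.1 CPM with rapamycin and at 94.8, 91.0 and 108 CPM with vehicle. The highest Torin-2 library was below the lowest rapamycin library, and all rapamycin libraries were below all vehicle libraries. The means were 36.6 ± 5.18 CPM with Torin-2, 76.8 ± 3.25 CPM with rapamycin and 98.0 ± 9.02 CPM with vehicle (SD, n = 3 each). The Torin-2 level was 0.374 of that with vehicle (log2 -1.42 ± 0.10, edgeR adjusted p = 1.41e-07), a difference that ranked 1414 of the 12511 genes. The rapamycin level was 0.783 of that with vehicle (-0.35 ± 0.09, edgeR adjusted p = 0.00859), and the Torin-2 level was 0.478 of that with rapamycin (-1.07 ± 0.10, edgeR adjusted p = 4.73e-06). The microglia marker sum and P2ry12, given above, were also lower with both compounds than with vehicle, and their part in the Fcgr1 values was not tested.

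Fcgr4, the intermediate-affinity activating receptor, moved little. It stood at 60.7, 56.5 and 60.5 CPM with Torin-2, at 52.6, 53.5 and 50.9 CPM with rapamycin and at 45.7, 49.1 and 48.4 CPM with vehicle. These groups did not overlap, but the gaps between them were narrow. The means were 59.2 ± 2.33 CPM with Torin-2, 52.3 ± 1.34 CPM with rapamycin and 47.7 ± 1.78 CPM with vehicle (SD, n = 3 each). Torin-2 was 1.24-fold above vehicle (log2 0.31 ± 0.06, edgeR adjusted p = 0.000454). Rapamycin against vehicle did not pass, at 0.13 ± 0.06 with a 95% interval of 0.01 to 0.26 before adjustment and an edgeR adjusted p of 0.0739. Torin-2 against rapamycin passed at 0.18 ± 0.06 (edgeR adjusted p = 0.0227), and this call was lost without Torin-2 replicate 1 (adjusted p = 0.0819), without Torin-2 replicate 3 (0.0742) and without rapamycin replicate 3 (0.0592).

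Fcer1g, the chain that all 3 activating receptors need, fell with Torin-2, as Fcgr1 did, while Fcgr3 and Fcgr4 rose. It stood at 382, 381.6 and 399 CPM with Torin-2, at 515, 466 and 522 CPM with rapamycin and at 497, 457 and 555 CPM with vehicle. The Torin-2 libraries were below every other library, and the rapamycin and vehicle libraries overlapped. The means were 387 ± 9.82 CPM with Torin-2, 501 ± 30.2 CPM with rapamycin and 503 ± 49.2 CPM with vehicle (SD, n = 3 each). Torin-2 stood at 0.770 of vehicle (log2 -0.38 ± 0.07, edgeR adjusted p = 0.000661) and at 0.773 of rapamycin (-0.37 ± 0.07, edgeR adjusted p = 0.00126). Rapamycin and vehicle differed by -0.01 ± 0.07, with a 95% interval of -0.16 to 0.15 and an edgeR adjusted p of 0.963, so a difference of up to about that interval cannot be told from none. Tyrobp, the adaptor with the same kind of motif that serves other receptor families, averaged 649 ± 8.62 CPM with Torin-2, 919 ± 2.12 CPM with rapamycin and 646 ± 84.0 CPM with vehicle.

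Fcgrt, the neonatal Fc receptor, stood at 66.2, 72.5 and 62.5 CPM with Torin-2, at 64.4, 73.8 and 59.3 CPM with rapamycin and at 61.4, 61.1 and 53.6 CPM with vehicle. Torin-2 and vehicle did not overlap, rapamycin and vehicle did, and replicate 3 was the lowest library of each group. The means were 67.1 ± 5.09 CPM with Torin-2, 65.8 ± 7.35 CPM with rapamycin and 58.7 ± 4.42 CPM with vehicle (SD, n = 3 each). Against vehicle, Torin-2 gave 0.19 ± 0.09 (95% interval -0.00 to 0.39, edgeR adjusted p = 0.0794) and rapamycin 0.17 ± 0.09 (-0.03 to 0.36, adjusted p = 0.145), and neither passed. Both passed with the replicate number as a block, at 0.19 ± 0.06 (edgeR adjusted p = 0.00764) and 0.16 ± 0.06 (0.0242). Torin-2 against rapamycin gave 0.02 ± 0.09 (95% interval -0.17 to 0.22, edgeR adjusted p = 0.840). B2m, the light chain that Fcgrt needs, did not pass in any comparison and varied widely, at 1627 ± 332 CPM with Torin-2, 2170.0 ± 529 CPM with rapamycin and 1767 ± 550 CPM with vehicle (SD, n = 3 each).

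**Figure D2:**
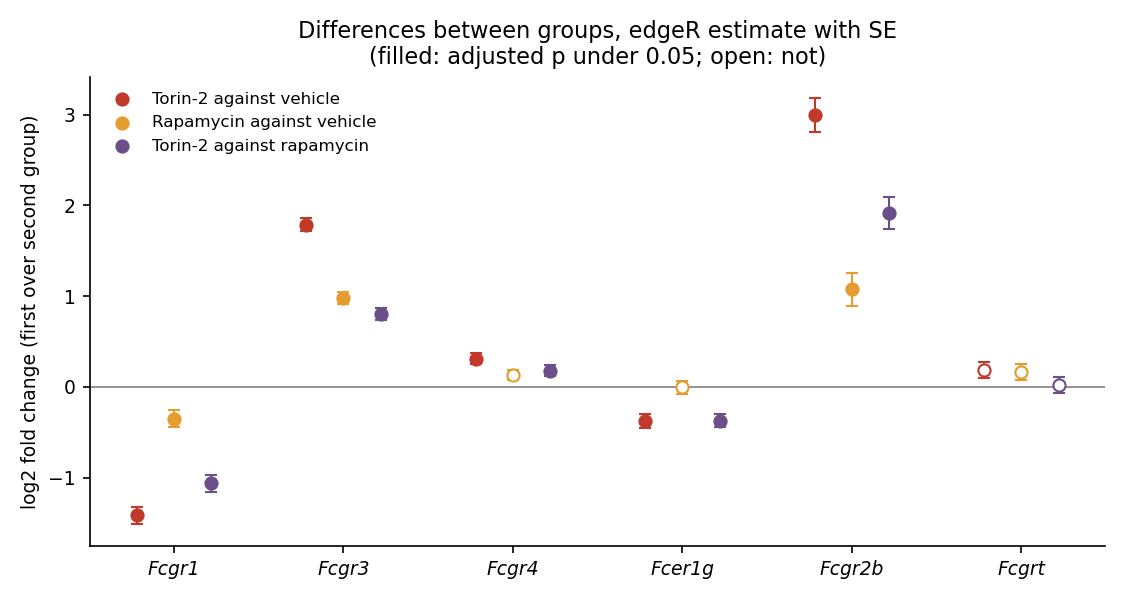
Log2 fold changes of the 6 Fc gamma receptor genes in the 3 comparisons between treatments, as edgeR estimates with SE bars; filled points passed at an adjusted p of 0.05 and open points did not. Fcgr2b and Fcgr3 lie above 0 in all 3 comparisons and Fcgr1 below 0 in all 3, while Fcgr4, Fcer1g and Fcgrt lie within 0.4 of 0.

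The order of RNA levels among the 6 genes also changed with treatment. Levels were compared between genes as CPM per kb of annotated exon. With Torin-2 the order was Fcgr3 at 727 CPM per kb, Fcer1g at 443, Fcgr4 at 47.2 ± 1.85, Fcgr2b at 44.9 ± 2.18, Fcgrt at 31.9 and Fcgr1 at 14.1. The ranges of mean ± SD of the neighbours Fcgr4 and Fcgr2b overlapped. With rapamycin the order was Fcer1g at 573 CPM per kb, Fcgr3 at 416, Fcgr4 at 41.7, Fcgrt at 31.3 ± 3.50, Fcgr1 at 29.7 ± 1.26 and Fcgr2b at 11.9. There, the ranges of mean ± SD of Fcgrt and Fcgr1 overlapped. With vehicle the order was Fcer1g at 575 CPM per kb, Fcgr3 at 210.5, Fcgr4 at 38.0 ± 1.42, Fcgr1 at 37.9 ± 3.49, Fcgrt at 27.9 and Fcgr2b at 5.63, where those of Fcgr4 and Fcgr1 overlapped. So Fcgr2b was the lowest of the 6 with rapamycin and with vehicle but not with Torin-2, where Fcgr1 was lowest. Counted over the longest coding transcript instead, Fcgr2b with Torin-2 stood at 73.4 CPM per kb, above Fcgr4 at 47.2.

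The make-up of the summed receptor counts (Fcgr1, Fcgr2b, Fcgr3 and Fcgr4) is given as a description without a test. The sum was 1619 ± 39.2 CPM with Torin-2, 921 ± 23.9 CPM with rapamycin and 544 ± 48.7 CPM with vehicle. Fcgr2b made up 16.1 ± 0.817% of it with Torin-2, 7.46 ± 1.76% with rapamycin and 5.95 ± 0.843% with vehicle. The rapamycin and vehicle libraries overlapped in this share, with rapamycin replicate 2 at 5.53% and vehicle replicate 3 at 6.64%. The Fcgr2b share per exon length was smaller, at 5.39% with Torin-2, 2.38% with rapamycin and 1.91% with vehicle. Fcgr1 made up 2.26 ± 0.271% with Torin-2, 8.35 ± 0.477% with rapamycin and 18.0 ± 0.538% with vehicle. Fcgr3 held most of the counts in each group, 78.0 ± 1.02% with Torin-2, 78.5 ± 1.42% with rapamycin and 67.2 ± 0.709% with vehicle. There were 5.23 ± 0.307 counts of the activating receptors for each count of Fcgr2b with Torin-2, 13.0 ± 3.65 with rapamycin and 16.0 ± 2.57 with vehicle. For Fcgr3 alone the ratio to Fcgr2b was 4.86 ± 0.300 with Torin-2, 11.0 ± 3.05 with rapamycin and 11.4 ± 1.66 with vehicle. In both of these ratios the rapamycin and vehicle libraries overlapped. Relative to their signalling chain, the activating receptors stood at 1.78 ± 0.00821 per Fcer1g per kb with Torin-2, 0.852 ± 0.0456 with rapamycin and 0.498 ± 0.0108 with vehicle (SD, n = 3 each). The activating receptor RNA per length was thus above that of Fcer1g with Torin-2 and below it in the other 2 groups.

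**Figure D3:**
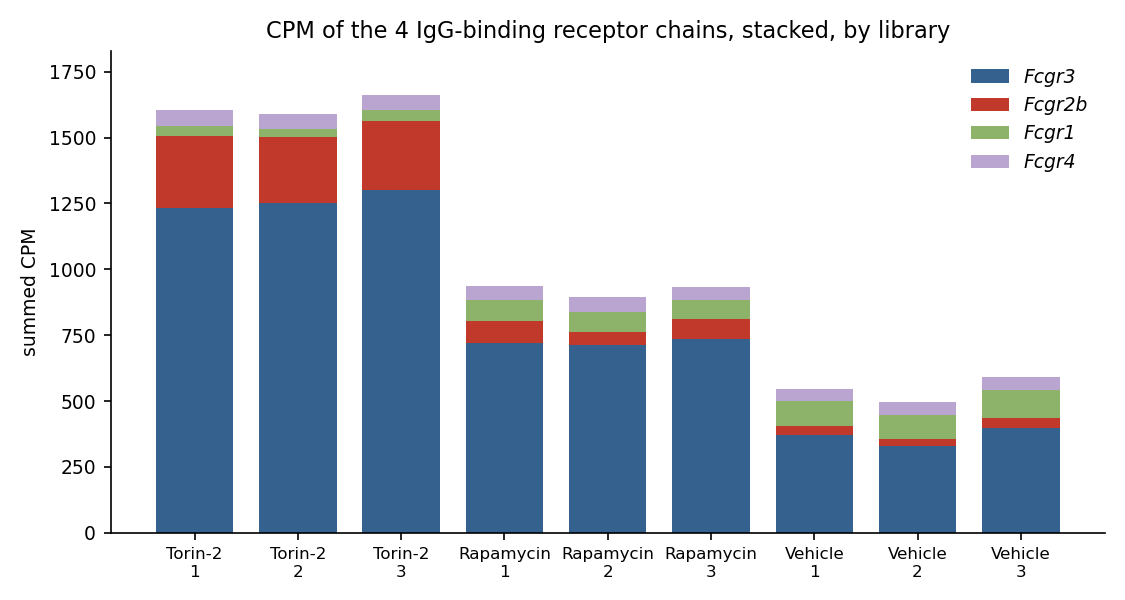
Summed CPM of Fcgr1, Fcgr2b, Fcgr3 and Fcgr4 in each library as stacked bars that start at 0, with Torin-2 at the left, rapamycin in the middle and vehicle at the right. Sums run from 1589 to 1663 CPM with Torin-2, 893 to 935 CPM with rapamycin and 495 to 592 CPM with vehicle, and the Fcgr2b segment is larger in each Torin-2 library than in any other library.

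Promoter sequence was looked at for 2 of the activating receptors, since Fcgr1 is a textbook target of interferon gamma and Fcgr4 is an activating receptor too, yet the 2 genes differed in direction here. The windows come from RefSeq on GRCm38.p6 and cover the 250 bases before the annotated start. The search ran over all 250 bases of each window, and exon bases were removed only from the sequences printed. Capitals mark motif matches found by exact search on both strands, at chr3:96293970-96294219 on the minus strand for Fcgr1 and at chr1:171018676-171018919 on the plus strand for Fcgr4.
Fcgr1 promoter: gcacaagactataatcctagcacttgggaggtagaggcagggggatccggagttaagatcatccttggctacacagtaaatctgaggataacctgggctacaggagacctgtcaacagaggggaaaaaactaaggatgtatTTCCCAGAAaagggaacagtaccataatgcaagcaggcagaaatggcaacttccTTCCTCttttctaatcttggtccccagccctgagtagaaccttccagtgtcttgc
Fcgr4 promoter: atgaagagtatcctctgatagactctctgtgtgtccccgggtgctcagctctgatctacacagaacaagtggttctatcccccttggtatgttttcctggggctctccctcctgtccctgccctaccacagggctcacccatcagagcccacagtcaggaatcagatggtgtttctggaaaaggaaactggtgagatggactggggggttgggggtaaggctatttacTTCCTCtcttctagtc
The interferon gamma activation site (GAS), TTCNNNGAA, occurs once in the Fcgr1 window, 109 bases before the start, and in none of the windows of the other 5 genes, where no match says only that these letters are not in the window. Of the Fcgr2b window, 187 bases lie in an annotated exon of that gene. The GAS letters are found in 7.02% of all 32851 promoters of the table. The core letters of PU.1 sites, GAGGAA or its reverse complement TTCCTC, lie 55 bases before the start of Fcgr1, 22 before that of Fcgr4 and 6 and 15 before the 2 annotated starts of Fcgr3, beside 23.3% of all promoters. The FOXO letters GTAAACA lie 116 bases before the start of Fcgrt, beside 3.17% of all promoters, and the E-box CACGTG of lysosomal genes was in no window of the 6 genes, beside 6.02%. These matches are letters in a window and no measure of binding. Spi1, which encodes PU.1, stood at 262 ± 2.49 CPM with Torin-2, 252 ± 7.72 CPM with rapamycin and 200.1 ± 5.85 CPM with vehicle.

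Lists of related genes are described from here on by counts, without a test of a list. Of all tested genes, 65.4% passed for Torin-2 against vehicle, 50.8% for rapamycin against vehicle and 48.2% for Torin-2 against rapamycin. The medians over all tested genes were -0.0078, 0.0011 and -0.00067 in that order. A list count is to be read beside these shares and is not by itself a result about the list. The first list holds 17 transcription factors, receptors and kinases known to regulate Fc receptors. Of these, 11 rose, 4 fell and 2 did not pass with Torin-2 against vehicle (median log2 0.39). With rapamycin 11 rose, 1 fell and 5 did not pass (median 0.33). Ifngr1, a chain of the interferon gamma receptor, rose with both, at 303 ± 15.8 CPM with Torin-2, 299 ± 7.92 CPM with rapamycin and 131 ± 14.0 CPM with vehicle (log2 1.21 and 1.19, edgeR adjusted p = 5.63e-08 and 3.47e-07). Irf1, an interferon-induced transcription factor, rose by 1.56 ± 0.12 with Torin-2 and 0.76 ± 0.12 with rapamycin (edgeR adjusted p = 2.98e-07 and 0.000297). Irf8, a factor of the monocyte lineage, stood at -0.26 ± 0.09 with Torin-2 (edgeR adjusted p = 0.0219) and at 0.13 ± 0.09 with rapamycin (0.243). Torin-2 against rapamycin gave 4 higher, 5 lower and 8 that did not pass (median 0.02).

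Downstream of the activating receptors, 19 of the 30 tested genes of the ITAM cascade rose with Torin-2 against vehicle, 5 fell and 6 did not pass (median log2 0.26). Rapamycin gave 17 higher, 6 lower and 7 that did not pass (0.29), and Torin-2 against rapamycin 13, 9 and 8 (0.05). Cblb, a ubiquitin ligase that restrains this cascade, rose to 163 ± 6.46 CPM with Torin-2 against 31.5 ± 0.517 CPM with vehicle (log2 2.37 ± 0.06, edgeR adjusted p = 1.38e-10). Sh3bp2, an adaptor that binds Syk, was at 162 ± 5.20 CPM with Torin-2 and 53.7 ± 1.22 CPM with vehicle (1.60 ± 0.05, edgeR adjusted p = 4.6e-10). Syk itself rose by 0.27 ± 0.07 with Torin-2 and by 0.30 ± 0.07 with rapamycin (edgeR adjusted p = 0.00491 and 0.00364). The Src-family kinase gene Fgr rose with rapamycin, at 28.6 ± 6.75 CPM against 8.99 ± 1.80 CPM with vehicle (1.67 ± 0.21, edgeR adjusted p = 4.55e-05), and was 1.41 ± 0.20 lower with Torin-2 than with rapamycin (log2). The adaptor genes Grb2 and Blnk fell with both compounds, by 0.68 and 0.41 with Torin-2 and by 0.44 and 0.66 with rapamycin on the log2 scale.

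Among the 12 phosphatases and adaptors that carry inhibitory signals, 7 rose, 3 fell and 2 did not pass with Torin-2 against vehicle (median log2 0.35). With rapamycin 9 rose, 0 fell and 3 did not pass (0.33). Inpp5d, the phosphatase that Fcgr2b recruits, fell to 114 ± 7.64 CPM with Torin-2, against 175 ± 12.1 CPM with vehicle (-0.62 ± 0.08, edgeR adjusted p = 2.38e-05), and with rapamycin it was at 186 ± 17.0 CPM (0.08 ± 0.08, adjusted p = 0.390). Torin-2 thus had more RNA of the inhibitory receptor and less of its phosphatase in the same libraries. Ptpn6, the tyrosine phosphatase of other ITIM receptors, rose by 0.58 ± 0.05 with Torin-2 and 0.19 ± 0.05 with rapamycin (edgeR adjusted p = 7.64e-07 and 0.00769). The adaptor gene Dok1 rose by 1.47 ± 0.08 with Torin-2, while Ptpn22 fell by 1.44 on the log2 scale. Torin-2 against rapamycin gave 4 higher, 5 lower and 3 that did not pass (median -0.04).

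The phagocytic cup is built by actin. Among 32 tested genes of its machinery, 14 were higher, 9 were lower and 9 missed the threshold with Torin-2 against vehicle (median log2 0.08). With rapamycin 17 rose, 3 fell and 12 did not pass (0.19). Torin-2 against rapamycin had 9 higher, 16 lower and 7 that did not pass (-0.21). The myosin gene Myo1g rose to 107 ± 3.51 CPM with Torin-2, against 51.4 ± 1.92 CPM with vehicle (1.05 ± 0.05, edgeR adjusted p = 1.27e-08), and Hcls1, which binds actin branches, fell to 83.2 ± 4.53 CPM with Torin-2, against 215 ± 16.7 CPM with vehicle (-1.37 ± 0.08, adjusted p = 3.56e-08). Myo1e, another myosin, was at 113 ± 11.7 CPM with Torin-2 and 298 ± 53.7 CPM with rapamycin (-1.39 ± 0.14, edgeR adjusted p = 1.19e-05).

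Other receptors that use the FcR gamma chain were read for comparison with the IgG receptors. Of 16 listed, 6 were tested; 5 rose and 1 fell with Torin-2 against vehicle (median log2 0.81), 4 rose, 1 fell and 1 did not pass with rapamycin (0.47), and 4 were higher and 2 did not pass for Torin-2 against rapamycin (0.49). Clec4d, a lectin receptor for mycobacterial and fungal sugars, stood at 1538 ± 106 CPM with Torin-2, 906 ± 86.5 CPM with rapamycin and 539 ± 28.5 CPM with vehicle. Pira2, an activating receptor of the paired immunoglobulin-like family, stood at 95.4 ± 5.79 CPM with Torin-2, 40.6 ± 0.369 CPM with rapamycin and 28.7 ± 0.721 CPM with vehicle; members of that family are close copies, so its counts are uncertain. Clec4e, the partner lectin of Clec4d, fell with both compounds (-0.91 ± 0.29 and -0.94 ± 0.29, edgeR adjusted p = 0.0151 and 0.0173), and the rapamycin and vehicle libraries overlapped. Of the Tyrobp adaptor and its partners, 12 were tested, of which 5 rose, 1 fell and 6 did not pass with Torin-2 against vehicle, 6, 1 and 5 with rapamycin, and 4, 2 and 6 for Torin-2 against rapamycin (medians 0.29, 0.44 and 0.21).

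The ITIM receptors other than Fcgr2b moved in both directions. Of 16 tested, 7 rose, 7 fell and 2 did not pass with Torin-2 against vehicle (median log2 -0.12), and 6, 2 and 8 with rapamycin (0.11), while Torin-2 against rapamycin gave 6, 5 and 5 (-0.07). Cd33, a sialic acid receptor, was at 88.9 ± 6.06 CPM with Torin-2, 15.7 ± 0.473 CPM with rapamycin and 15.0 ± 2.35 CPM with vehicle. Clec4a2, a lectin receptor, was at 43.8 ± 3.81 CPM with Torin-2, 27.9 ± 1.27 CPM with rapamycin and 7.81 ± 0.298 CPM with vehicle. Cd300lf, a lipid receptor, fell to 10.2 ± 1.81 CPM with Torin-2 and 9.04 ± 1.12 CPM with rapamycin, against 71.4 ± 5.28 CPM with vehicle. The Torin-2 differences from vehicle of Cd33 (2.57 ± 0.10), Clec4a2 (2.49 ± 0.09) and Cd300lf (-2.81 ± 0.12) passed with edgeR adjusted p of 1.78e-09, 7.73e-10 and 3.6e-09.

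A list called Fc-binding proteins here also holds Fc receptor-like genes, whose binding to antibodies was not measured. Of 11 listed, 4 were tested: Trim21 and the Fc receptor-like genes Fcrl1, Fcrlb and Fcrls. The counts of this list are therefore not about antibody-binding proteins alone. With Torin-2 against vehicle 2 rose and 2 fell (median log2 -0.52). With rapamycin 1 rose, 2 fell and 1 did not pass (-0.18), and Torin-2 against rapamycin gave 1, 1 and 2 (-0.06). The Fc receptor-like gene Fcrlb is among the higher genes in each comparison. It passed the filter on low counts only through the Torin-2 libraries, so these counts of higher genes are not a result about the list. Fcrls, a receptor that marks microglia in the mouse, stood at 4.58 ± 0.260 CPM with Torin-2, 5.25 ± 0.634 CPM with rapamycin and 11.3 ± 2.38 CPM with vehicle, and fell with both (edgeR adjusted p = 1.8e-05 and 0.000138), beside the lower P2ry12. Trim21, the antibody receptor of the cytosol, was at 10.8 ± 0.182 CPM with Torin-2 and 8.90 ± 0.996 CPM with vehicle (0.27 ± 0.11, edgeR adjusted p = 0.0404). Of the 9 tested genes of the Fcgrt partner and recycling list, 5 rose, 2 fell and 2 did not pass with Torin-2 against vehicle (0.62), 3, 0 and 6 with rapamycin (0.43), and 3, 1 and 5 for Torin-2 against rapamycin (0.11). Rab11fip5, an effector of endosome recycling, was at 163 ± 8.84 CPM with Torin-2, 94.3 ± 6.65 CPM with rapamycin and 60.9 ± 5.79 CPM with vehicle.

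The complement receptor list mixes integrin chains (Itgam, Itgax and Itgb2) with receptors for complement fragments (C5ar1, C5ar2 and C3ar1) and Cr1l. Its counts are therefore not about opsonin receptors alone, and Vsig4 was below the filter on low counts. Against vehicle, Torin-2 gave 3 higher, 2 lower and 2 short of the threshold among 7 tested (median log2 0.13), and rapamycin 5, 0 and 2 (0.72). Torin-2 against rapamycin gave 0, 5 and 2 (-0.64). Itgb2, the shared beta chain of the complement receptor integrins, was at 1098 ± 10.7 CPM with Torin-2, 1711 ± 142 CPM with rapamycin and 414 ± 35.8 CPM with vehicle. C3ar1, a receptor for a complement fragment, was at 450.2 ± 19.3 CPM with Torin-2, 757 ± 21.9 CPM with rapamycin and 618 ± 12.6 CPM with vehicle.

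**Figure D4:**
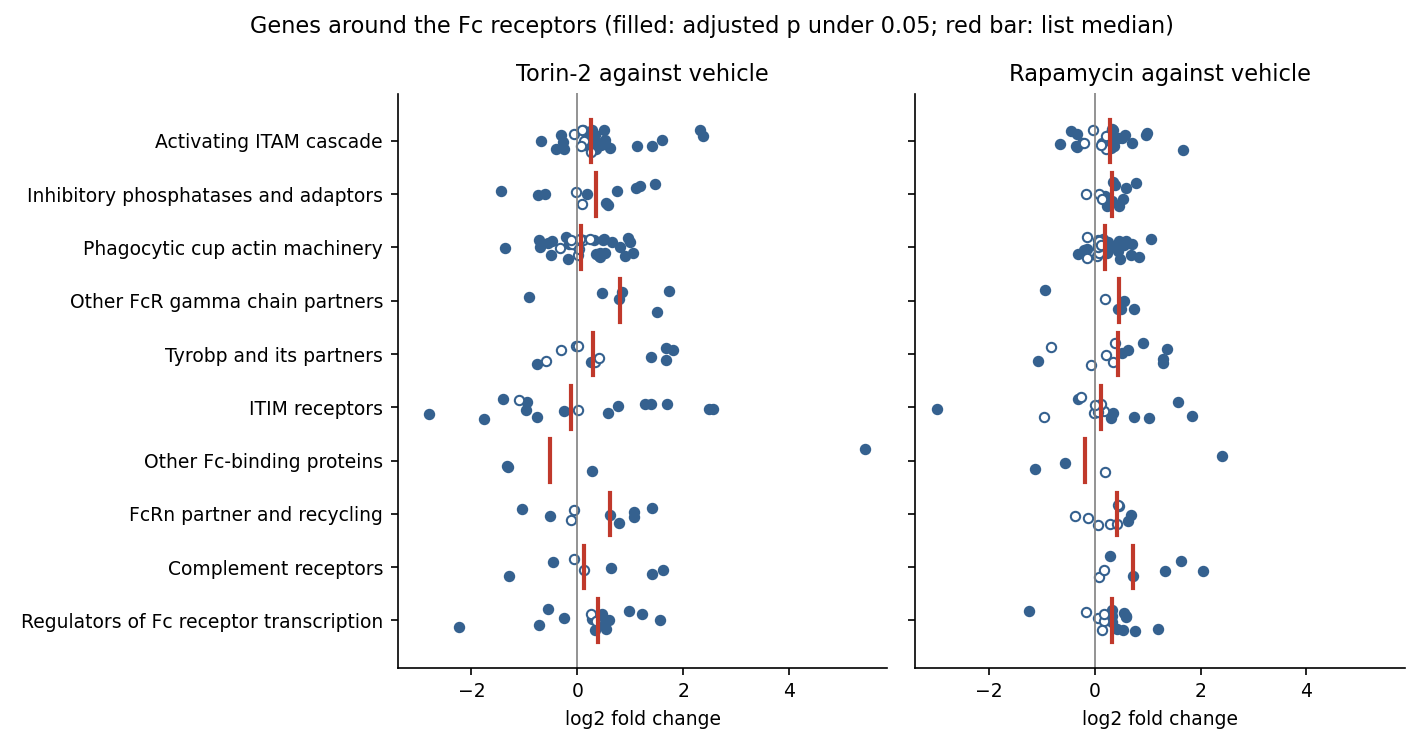
Log2 fold changes of the tested genes of each list, for Torin-2 against vehicle at the left and rapamycin against vehicle at the right, with 1 point per gene (filled where it passed at an adjusted p of 0.05) and a bar at each list's median. The complement receptors have medians of 0.13 with Torin-2 and 0.72 with rapamycin, and the ITAM cascade 0.26 and 0.29 with Torin-2 and rapamycin against vehicle. The highest point with Torin-2, Fcrlb, rests on few counts. That gene passed the filter on low counts only through the Torin-2 libraries, so its points are not a result.

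Neighbouring genes on chromosome 1 moved in both directions. Of 22 other tested genes within 250 kb of the stretch that holds Fcgr2b, Fcgr4, Fcgr3 and Fcer1g, 9 were higher, 7 lower and 6 did not pass with Torin-2 against vehicle, with a median log2 of 0.02, close to that of all genes. Rapamycin gave 9, 4 and 9 (0.06), and Torin-2 against rapamycin 6, 6 and 10 (-0.09). Of all tested genes, 65.4%, 50.8% and 48.2% passed in these comparisons, so the counts are not by themselves a result about the neighbours. Among the neighbours, Cfap126 stood at -2.36, Sdhc at -0.79, Dusp12 at 0.70 and Pcp4l1 at 1.50 with Torin-2 against vehicle. These were chosen after their values were seen. Fcrlb, an Fc receptor-like gene in the same cluster, was also singled out after its values were seen. It had 59, 57 and 65 counts in the Torin-2 libraries, 6, 9 and 5 in the rapamycin libraries and 0, 3 and 1 in the vehicle libraries. It passed the filter on low counts only through the Torin-2 libraries, so its fold change and p are not given. It is still counted among the higher neighbours above in all 3 comparisons and enters their medians, and its call there is not a result.

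**Figure D5:**
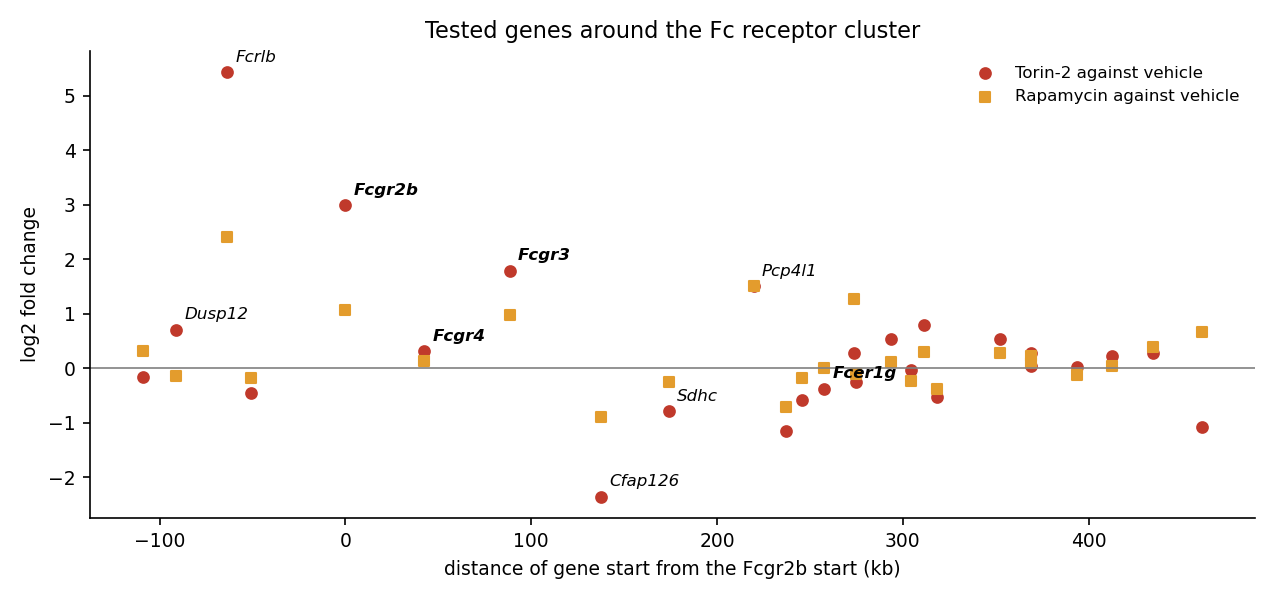
Log2 fold change of the tested genes around Fcgr2b against the distance of their starts from its start in kb, for Torin-2 and rapamycin against vehicle. The Fc gamma receptor genes and Fcrlb are labelled, together with a few neighbours, and the other genes scatter on both sides of 0. Fcrlb passed the filter on low counts only through the Torin-2 libraries, so its points are not a result.

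The genes whose pattern over the 9 libraries was most like that of a member were found by the root mean square difference of centred log2 CPM among 8728 genes with at least 5 CPM. Nearest to Fcgr2b was Vwf, the von Willebrand factor gene, at 0.180, followed by Taf1d at 0.288 and Mturn at 0.298. Nearest to Fcgr3 were Ezh1 at 0.0746, Cxcr4 at 0.0839 and Kmt5b at 0.0902. Nearest to Fcgr1 were Dip2c at 0.110, Hcls1 at 0.122 and Gss at 0.126. Fcgr4 lay nearest to Pak2 (0.0429), Fcer1g to Chmp4b (0.0288) and Fcgrt to Atp2c1 (0.0603). A gene with a small range, such as Fcer1g, has near neighbours more easily by this measure. Among the 6 members the smallest difference was between Fcgr4 and Fcgrt (0.133) and the largest between Fcgr1 and Fcgr2b (1.87), while Fcgr2b and Fcgr3 lay 0.597 apart.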

How the data were processed

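The measurements are RNA-seq of 9 libraries, 3 each of Torin-2, rapamycin and vehicle, made with the Nugen Universal Plus mRNAseq kit and read as 100 bp pairs, per the labels' protocols. The deposited values are whole-number counts per gene. Per the submitters' processing notes, bcl2fastq, FastQC and STAR 2.5.2a were run by the authors, on mm10 and GRCm38.p6. The sources used here state neither the counting tool nor its strand setting, nor an annotation release. Without a known strand setting, reads of a gene and its antisense partner cannot be told apart. Of 53342 gene identifiers, 53237 were found in GENCODE M21.

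In R 4.3.3, edgeR 4.0.16 with limma 3.58.1 was run on all genes: filterByExpr by group left 12511, TMM factors were 0.955 to 1.05, and 1 quasi-likelihood fit of the 9 libraries gave 3 contrasts, 2-sided, with Benjamini-Hochberg adjustment at 0.05. Changes are relative to the other genes, since no spike-in was used here. The steps were tested on simulated data. The alternatives were DESeq2 1.42.0, RLE scaling, library totals alone, no filter, 2 groups only, the replicate block and leaving out replicates. Libraries with the same replicate number deviated together from their group means, with correlations of 0.168 to 0.500 in 9 pairs, against -0.358 to 0.162 in 18 other pairs. Replicate 3 was negative with every library of another number, whereas replicates 1 and 2 were positive with each other. Torin-2 replicate 1 and rapamycin replicate 2 reached 0.162, close to 0.168 for replicate 2 of Torin-2 and vehicle. Whether replicates 1 and 2 are paired is thus less certain. The replicate numbers were still taken to pair the samples. The main fit did not use this pairing, and its p-values measure the spread between cultures within a group. Only the replicate block uses it, and there Fcgrt also passed against vehicle with both compounds.

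The members and lists were chosen with earlier results of these data known. Named genes are the 6 members, from each list and comparison up to 2 of the largest rises and 2 of the largest falls with a mean of at least 5 CPM, 10 genes fixed by name, and the 3 genes most like each member, of which the text gives a selection; some of them are not reported here. No protein sequences were used here.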

Additional observations from a re-analysis of the deposited data

How the results depend on the processing

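The calls of Fcgr1, Fcgr2b and Fcgr3 kept direction and side of the threshold in every comparison and alternative run. Fcer1g with rapamycin against vehicle, -0.01 on the log2 scale and not past the threshold, took the opposite sign with DESeq2 (0.00085), RLE scaling (0.000899), 2 groups only (0.018), without replicate 3 in every group (0.040) and without single libraries (range -0.069 to 0.071). Fcgrt with Torin-2 against rapamycin ranged from -0.046 to 0.11 when single libraries were left out. Fcgrt with Torin-2 against vehicle passed without a filter (0.20), with 2 groups only (0.19) and with the replicate block (0.19, edgeR adjusted p = 0.00764), and with rapamycin against vehicle it passed with the replicate block (0.16, adjusted p = 0.0242) and without rapamycin replicate 3 (leave-one-out range 0.075 to 0.24). Fcgr4 with Torin-2 against rapamycin no longer passed without a filter (0.19), with 2 groups only (0.16) or without replicate 3 in every group (0.14), and single libraries left out gave 0.16 to 0.21. The block changed no other call of a member. The Fcgr2b share per exon length was 5.39% with Torin-2, 2.38% with rapamycin and 1.91% with vehicle, and with Fcgr1 left out of the sum the vehicle share was 7.26%. Counts in lists moved as follows. For Torin-2 against vehicle, higher Fc-binding proteins were 1 with DESeq2, library totals or 2 groups only (leave-one-out 1 to 3), lower FcRn genes 1 with DESeq2 or no filter (1 to 2), and lower gamma chain partners 0 to 1 leave-one-out. For rapamycin against vehicle, library totals alone gave 5 lower phagocytic cup genes, 1 lower FcRn gene and 2 lower regulators, 2 groups only gave 0 higher Fc-binding proteins, and lower gamma chain partners were 0 to 1 leave-one-out. For Torin-2 against rapamycin, lower inhibitory genes were 3 with library totals, no filter or without replicate 3 in every group (3 to 6), higher Fc-binding proteins 2 with no filter or without replicate 3 in every group (1 to 2), and lower FcRn genes 2 with no filter, the replicate block or without replicate 3 in every group. Higher Tyrobp partners were then 2 without replicate 3 in every group (1 to 4), and lower regulators 3 to 5. The cause of these shifts was not tested. Genes with few counts, such as Fcrlb, are measured least well.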

Other observations

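Fcrla, the Fc receptor-like gene beside Fcrlb, was below the filter on low counts and was not tested. It had 13, 18 and 11 counts in the Torin-2 libraries, 0, 4 and 0 in the rapamycin libraries and 0, 2 and 0 in the vehicle libraries. Every Torin-2 library was above every other library. Fcrl5 had 0, 0 and 0 counts with Torin-2, 3, 1 and 1 with rapamycin and 4, 0 and 2 with vehicle, and Fcrl6 had none in the 9 libraries. These genes were singled out after their values were seen.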
